A study of Mus musculus with 188 samples.

Results

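The enzymes that regenerate NADPH alongside glucose-6-phosphate dehydrogenase were followed across all treatments, doses and times: Pgd, Tkt and Taldo1 of the pentose phosphate pathway, the malic enzymes Me1 and Me2, the isocitrate dehydrogenases Idh1 and Idh2, and the mitochondrial transhydrogenase Nnt. The genes were chosen by symbol, through their Ensembl identifiers, and not by any measured value. They are 8 of the 25472 genes listed in both deposited gene tables and take up 9 rows, because Nnt has 2 gene models that count nearly the same reads. All 8 passed the filter on low counts in every fit.

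The samples were coronal brain slices of C57BL/6J mice, male and female and 6 to 8 weeks old, cut at 150 µm from perfused brains, kept on membrane inserts and treated on day 7 of culture. Bulk mRNA was sequenced in 188 libraries, of which 167 could be given a group. In batch 1, slices received medium alone, heme bound to albumin (heme-albumin) at 12.5, 50, 200 or 400 µM, or heme bound to hemopexin (hemeHpx) at 200 µM, all for 24 h and with 10 libraries a group. The labels of the 10 hemeHpx libraries disagree, since their titles name haptoglobin as the partner of heme and their treatment tags and library names give hpx. They were grouped by the tag, and every hemeHpx value below rests on that reading. In batches 2 and 3, they received medium alone (10 libraries at 24 h and 9 at 48 h), cell-free human hemoglobin (Hb) at 200 or 400 µM (10 libraries at each dose and time), Hb in complex with haptoglobin (HbHp) at 200 µM (8 and 8) or 400 µM (4 and 5), or haptoglobin alone (Hp) at 400 µM (12 and 11). All scavenger proteins were human. Every slice, controls included, came from the same substrain, whose Nnt carries a deletion that leaves no working transhydrogenase, so Nnt counts are transcript of a mutated gene. The labels do not say which libraries came from separate animals, and the p-values therefore measure the spread between libraries, part of which may be technical.

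NADPH carries the electrons with which cells reduce oxidised glutathione and thioredoxin and with which heme oxygenase and biliverdin reductase work. In the cytosol it is made by the oxidative branch of the pentose phosphate pathway, where glucose-6-phosphate dehydrogenase (G6pdx) and 6-phosphogluconate dehydrogenase (Pgd) act in series. Transketolase (Tkt) and transaldolase (Taldo1) of the non-oxidative branch return pentoses to glycolysis, and through it to renewed oxidation. Cytosolic malic enzyme (Me1) and isocitrate dehydrogenase (Idh1) are other cytosolic sources, Idh2 and Nnt serve the mitochondrial matrix, and Me2, the mitochondrial malic enzyme, works mainly with NAD. Pgd, Tkt, Taldo1 and Me1 are textbook targets of the transcription factor NRF2, which binds antioxidant response elements.

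Promoter windows of these 4 genes are shown because they are the members that rose most often. RefSeq start sites on GRCm38.p6 were available for 6 members (9 windows in all), and none was at hand for Me2 or Nnt. Each window below runs from 120 bases before the start site to 20 bases from it onward. Capitals mark the core of the antioxidant response element, TGACNNNGC, and the CCAAT box (CCAAT, or ATTGG on the other strand), both searched on both strands over 250 bases before and 50 after the start.
Me1, chr9:86695895-86696034, minus strand: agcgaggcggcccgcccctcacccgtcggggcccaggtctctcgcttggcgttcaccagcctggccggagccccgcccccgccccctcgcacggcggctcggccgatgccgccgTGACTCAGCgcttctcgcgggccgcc
Pgd, first start site, chr4:149166686-149166825, minus strand: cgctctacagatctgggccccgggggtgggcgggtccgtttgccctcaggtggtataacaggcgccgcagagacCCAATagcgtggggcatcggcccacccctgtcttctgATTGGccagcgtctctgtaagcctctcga
Taldo1, chr7:141392040-141392179, plus strand: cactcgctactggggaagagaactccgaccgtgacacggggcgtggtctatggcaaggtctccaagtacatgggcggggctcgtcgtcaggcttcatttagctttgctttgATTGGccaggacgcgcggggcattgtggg
Tkt, chr14:30549011-30549150, plus strand: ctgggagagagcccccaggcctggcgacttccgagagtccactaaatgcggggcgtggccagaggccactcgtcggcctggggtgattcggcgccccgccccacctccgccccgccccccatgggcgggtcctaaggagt
Me1 held the element core as TGACTCAGC, with its first base at position -6 from the start site. Pgd held a CCAAT box at -46 and another, on the opposite strand, at -9, and Taldo1 held one at -9 on the opposite strand. A further Pgd start site had the core as TGACATTGC at position 4, and the Tkt window held neither motif. A further Me1 start site had no core and a CCAAT box at -208 on the opposite strand. Of the members not shown, Idh2 held a CCAAT box at -44 and Idh1 held one at -151 of 1 of its 2 start sites, both without the core. In 32851 promoter windows of 300 bases, 12.4% held the element core and 37.4% a CCAAT box, so a match is a description of letters and no more.

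The sum of counts in a library lay between 11038484 and 44199060 in batch 1, between 32626873 and 54174784 in batch 2 and between 15587938 and 38839614 in batch 3. Library names of batches 2 and 3 start with E1 or E2, which the labels do not explain. These 2 sets differed in 68% of all genes tested, 36.1% higher and 31.9% lower in E2. Among the members, set E2 minus set E1 was -0.54 for Me1 (log2, SE 0.04, adjusted p = 4.6e-21), -0.33 for Tkt and 0.21 for Taldo1. All HbHp libraries are set E2 of batch 3, whereas most controls are set E1 of batch 2, and values of each set are given below wherever this touches a result. As a check of the labelled brain tissue, all markers of neurons (6), astrocytes (5), oligodendrocytes (5), microglia (6) and endothelium (4) were above 0 in every grouped library, and the 3 red blood cell markers summed to at most 0.162 CPM (counts scaled to the size of the library).

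In untreated slices the order of the levels was led by Taldo1. Per kilobase of the longest coding transcript, in the batch 1 controls, Taldo1 had a median of 163 CPM and Tkt of 105, and their ranges did not overlap. Idh2 (74.3), Idh1 (57.9), Pgd (54.9) and Me1 (47.1) followed, and each overlapped its neighbour in this order. Me2 at 18.6 and Nnt at 9.03 CPM per kilobase stood apart below them. In the 24 h controls of batches 2 and 3 the order of the ends was the same, with Taldo1 at 190.7 and Nnt at 7.27, and the 4 genes in the middle lay between 52.7 and 54.1. The longest coding transcript of Pgd has 2218 bases and its longest transcript 3644, so its place in this order rests on the choice of length. All further levels are CPM with TMM-scaled library sizes, not divided by length.

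Under heme-albumin the pentose phosphate enzymes and the cytosolic malic enzyme rose, and at the highest dose both isocitrate dehydrogenases and the transhydrogenase fell. At 12.5 µM none of the 8 members passed an adjusted p of 0.05 in the main edgeR fit or with DESeq2 (background 0.045% of all genes, 7 genes). Pgd, Tkt and Taldo1 were 3 with an unadjusted p under 0.05, beside 1226 of all 15554 genes. Pgd passed in edgeR with the codes in the library names as a replicate block. At 50 µM 3 members were called, all higher (background 0.463%, of which 0.45% higher). At 200 µM 5 were called, 4 higher and 1 lower (background 13.6%, 6.98% higher and 6.6% lower), and at 400 µM 7, 4 higher and 3 lower (background 29%, 14.7% higher and 14.3% lower). The median log2 fold change of the 8 members was 0.21 at 200 µM and 0.18 at 400 µM, beside -0.01 over all genes at either dose.

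**Figure D1:**
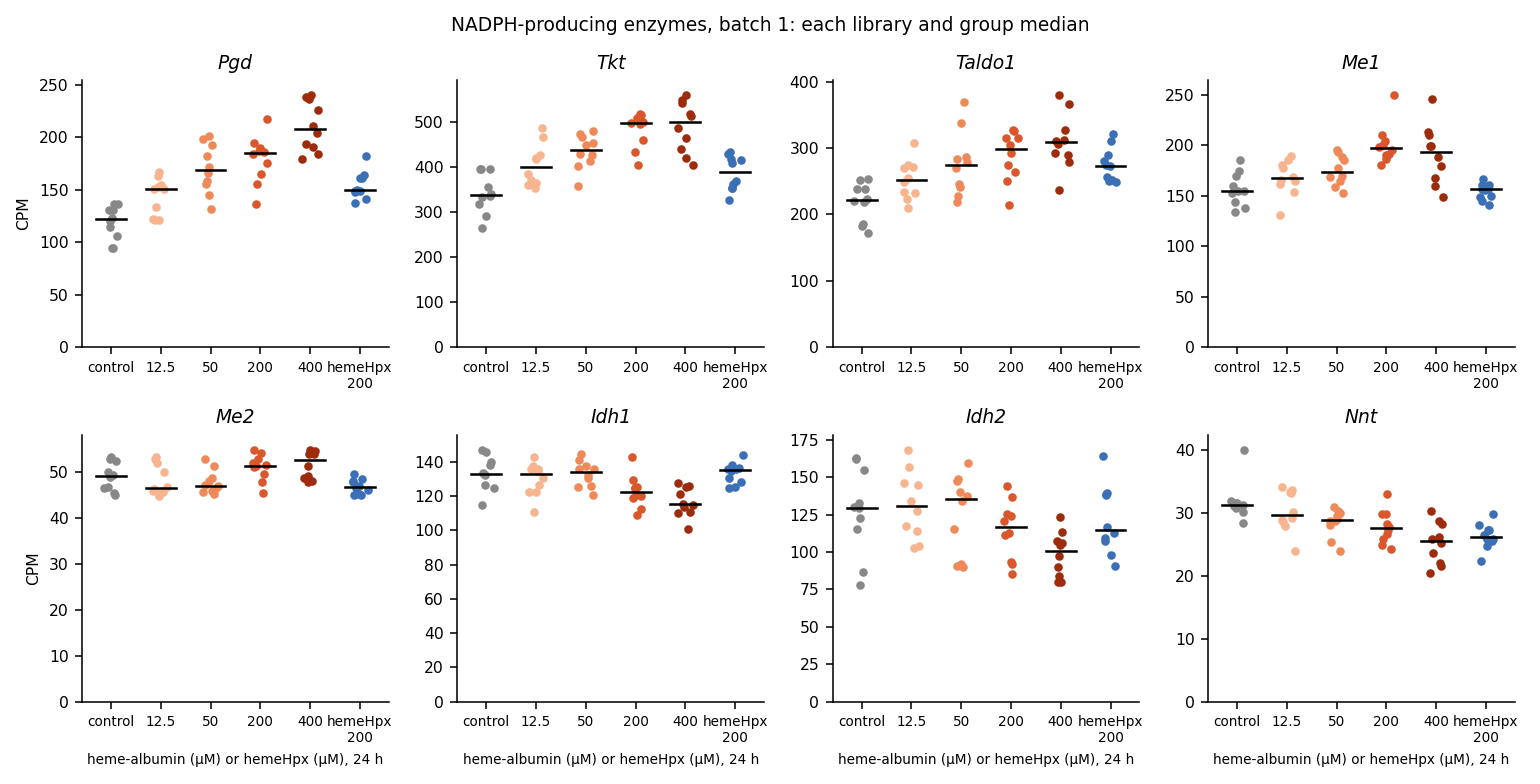
Levels of the 8 genes in the 60 libraries of batch 1. Each panel is a gene, the vertical axis gives CPM from 0, the horizontal axis gives control, the heme-albumin dose in µM and hemeHpx at 200 µM, each point is a library and each line the median of 10 libraries. Pgd climbs from a control median of 122 to 207 at 400 µM, while Nnt declines from 31.3 to 25.6.

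Pgd, the second oxidative dehydrogenase of the pathway, had the largest fold change of the 8 members at each dose of heme-albumin. Its level in the batch 1 controls had a lowest, median and highest value of 94.3, 122 and 136 CPM. The corresponding values were 121, 151 and 167 at 12.5 µM, 132, 169 and 201 at 50 µM, 136, 185 and 217 at 200 µM, and 179, 207 and 239.7 at 400 µM. All 10 libraries at 400 µM lay above the highest control, as did 9 of 10 at 200 µM and at 50 µM. The log2 fold change was 0.52 (SE 0.08, adjusted p = 1.5e-05) at 50 µM, 0.59 (SE 0.08, adjusted p = 1.3e-07) at 200 µM and 0.82 (SE 0.08, adjusted p = 1.9e-12) at 400 µM. The step from 200 to 400 µM, 0.23 (95% interval 0.08 to 0.39), did not pass (adjusted p = 0.15). No member was called for this step in the main edgeR fit or with DESeq2 (background 1.27%). At an unadjusted p under 0.05 there were 2, Pgd and Nnt, beside 1793 of all 15554 genes. With the codes in the library names as a replicate block, edgeR called Pgd for this step.

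Tkt and Taldo1, the sugar-rearranging enzymes, rose alongside Pgd. Tkt ran from 265 to 396 CPM in controls (median 338), from 404 to 518 at 200 µM (median 499) and from 404 to 560 at 400 µM (median 500.1). All 10 libraries of either dose exceeded every control. Its log2 fold change was 0.35 at 50 µM (adjusted p = 0.0023), 0.50 at 200 µM (SE 0.07, adjusted p = 3.5e-07) and 0.52 at 400 µM (adjusted p = 3.1e-08), so that the difference between the highest doses was 0.02 (95% interval -0.12 to 0.15). Taldo1 ran from 172 to 253 CPM in controls (median 222), from 215 to 328 at 200 µM (median 298) and from 236 to 379 at 400 µM (median 308), with 8 and 9 libraries above the highest control and some overlap at both doses. Its changes were 0.34 at 50 µM (adjusted p = 0.044), 0.40 at 200 µM (adjusted p = 0.00059) and 0.51 at 400 µM (SE 0.08, adjusted p = 4.2e-06).

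Me1 responded at the higher doses. Its controls ran from 134 to 186 CPM (median 155) and its libraries at 200 µM from 180.3 to 249.6 (median 197), 9 of 10 above the highest control. The log2 fold change was 0.36 (SE 0.07, adjusted p = 0.00012) at 200 µM and 0.29 (adjusted p = 0.00068) at 400 µM, and 0.16 (95% interval 0.03 to 0.29, adjusted p = 0.35) at 50 µM. Me2 stayed within 44.8 and 54.9 CPM in all 60 libraries and was not called at any dose. The cytosolic and the mitochondrial malic enzyme thus gave different values at the same dose, although the difference between these genes was not tested.

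The members that fell did so at the highest doses. Idh1 ran from 115 to 147 CPM in controls (median 133) and from 101 to 128 at 400 µM (median 115), with 5 of 10 libraries below the lowest control and a change of -0.20 (SE 0.05, adjusted p = 0.00059). Idh2 changed by -0.37 (SE 0.12, adjusted p = 0.016) at 400 µM, but its controls spread from 78.3 to 163 CPM and held the whole range of the treated libraries, 79.8 to 123. Nnt ran from 28.5 to 40.1 CPM in controls (median 31.3), from 24.3 to 32.998 at 200 µM and from 20.5 to 30.3 at 400 µM, with 7 and 8 libraries below the lowest control. It changed by -0.20 (SE 0.06, adjusted p = 0.032) and -0.34 (SE 0.06, adjusted p = 4.6e-05). In bulk slices, fewer cells of a type and less RNA per cell cannot be told apart. The summed astrocyte markers had a median of 9927 CPM in the controls, 7371 at 200 µM and 6961 at 400 µM, and the microglial sum of 791, 552 and 600. The border macrophage markers went from 38.8 to 22.7 and 21.97 CPM, and the neuron markers from 260.0 to 318 and 326. The part of these cell types in the changes was not tested.

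Binding the same dose of heme to hemopexin in place of albumin left some members raised and others at control level. Against control, hemeHpx at 200 µM gave calls for 3 members (background 8.2%, 3.77% higher and 4.44% lower): Pgd rose by 0.38 (SE 0.08, adjusted p = 0.0077), Taldo1 rose by 0.34 (SE 0.08, adjusted p = 0.027) and Nnt changed by -0.27 (SE 0.06, adjusted p = 0.021). The 10 hemeHpx libraries ran from 137 to 182 CPM for Pgd, all above the highest control, and from 22.3 to 29.8 for Nnt, 9 below the lowest. Me1 ran from 141 to 167 CPM with no library above the controls (change -0.02, 95% interval -0.15 to 0.11), and Tkt from 328 to 435 (0.18, adjusted p = 0.08).

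Set directly against heme-albumin at 200 µM, hemeHpx gave lower Me1 (-0.38, SE 0.07, adjusted p = 4.2e-05), Tkt (-0.32, SE 0.07, adjusted p = 0.00072), Pgd (-0.21, SE 0.08, adjusted p = 0.037) and Me2 (-0.12, adjusted p = 0.017), and higher Idh1 (0.12, adjusted p = 0.043). These are 5 of 8 members, with a background of 25.9%, 13% higher and 12.9% lower. For Me1 the groups did not overlap, since the highest hemeHpx library (167 CPM) lay below the lowest heme-albumin library (180.3). Taldo1 was not separated, with a difference of -0.06 (95% interval -0.23 to 0.10), and neither were Nnt (-0.08, 95% interval -0.20 to 0.05) and Idh2 (0.08, 95% interval -0.15 to 0.32). Correcting the libraries for GC content and transcript length ended the calls of Pgd (adjusted p = 0.082) and Me2 (adjusted p = 0.067), and fitting the 3 groups alone ended that of Idh1 (adjusted p = 0.064). Microglial markers summed to a median of 993 CPM under hemeHpx and 552 under heme-albumin, and their part was not tested.

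Hb raised Pgd, Tkt and Me1. At 200 µM the calls were Pgd alone at 24 h (1 of 8, background 0.0971%, 0.0789% higher) and Pgd, Tkt and Me1 at 48 h (3 of 8, background 0.31%, 0.279% higher). At 400 µM they were Pgd, Tkt and Me1 at 24 h (3 of 8, background 0.522%, 0.474% higher) and these with Idh1 at 48 h (4 of 8, background 0.601%, 0.486% higher). All were higher than in the time-matched controls, and Taldo1, Me2, Idh2 and Nnt were not called at any dose or time. Taldo1 missed the threshold with values above 0. In 5 fits that each left out 1 set E2 control, it changed by 0.28 to 0.31 at 200 µM and 48 h. Me1 had 0.28 to 0.31 in the same fits. At 400 µM Taldo1 changed by 0.25 to 0.27 at 24 h and by 0.24 to 0.27 at 48 h.

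For Pgd, the 24 h controls ran from 103 to 145 CPM (median 117) and the 48 h controls from 104 to 170.3 (median 113). Hb libraries ran from 129 to 173 (200 µM, 24 h), from 137 to 199 (400 µM, 24 h), from 138 to 197 (200 µM, 48 h) and from 134 to 194 (400 µM, 48 h), each group overlapping the controls. Within set E1 the groups were clear of each other at 24 h, where controls ended at 124 and Hb began at 129 (200 µM) and 137 (400 µM). The log2 fold changes were 0.33 (SE 0.07, adjusted p = 0.033), 0.44 (SE 0.07, adjusted p = 6.8e-05), 0.38 (SE 0.08, adjusted p = 0.0024) and 0.37 (SE 0.08, adjusted p = 0.0023) in the same order. The call at 200 µM and 24 h was lost with the batch term alone (0.32, adjusted p = 0.13) and without 1 control (24 h replicate 7; 0.32, adjusted p = 0.065). Batch 2 alone called Pgd at each dose and time (0.36 to 0.47). Set E2 alone kept the call at 400 µM and 24 h (0.46, adjusted p = 0.022) and lost those at 200 µM (0.37 at 24 h and 0.25 at 48 h) and at 400 µM and 48 h (0.15), and batch 3 alone kept none of the 4 (0.08 to 0.23). Batch 3 holds few of these libraries. For Hb at 200 µM and 24 h it has 2, both of set E1. Each other Hb group and the controls of each time have 1 of either set in it.

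Tkt changed by 0.28 (adjusted p = 0.013) at 200 µM and 48 h, 0.35 (SE 0.06, adjusted p = 9.3e-05) at 400 µM and 24 h, and 0.27 (adjusted p = 0.011) at 400 µM and 48 h. Me1 changed by 0.31 (adjusted p = 0.039), 0.38 (SE 0.08, adjusted p = 0.0012) and 0.31 (adjusted p = 0.028), and Idh1 by 0.18 (SE 0.05, adjusted p = 0.034) at 400 µM and 48 h. In set E1 at 48 h, all 7 Hb libraries at 200 µM exceeded the controls for Me1 (233.6 to 291 against 191 to 232 CPM). All of these calls of Tkt, Me1 and Idh1 were lost with the batch term alone, with log2 changes of 0.18 to 0.31, and in batch 2 alone, with 0.16 to 0.35. The 48 h calls of Me1 and Idh1 at 400 µM were also lost without control replicate 7 or 9 of 48 h (adjusted p from 0.059 to 0.098). At 200 µM and 48 h, that of Tkt was lost without control replicate 7 of 48 h (adjusted p = 0.058) and that of Me1 without it (0.14), without control replicate 9 of 48 h (0.12) or without control replicate 11 of 24 h (0.054).

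**Figure D2:**
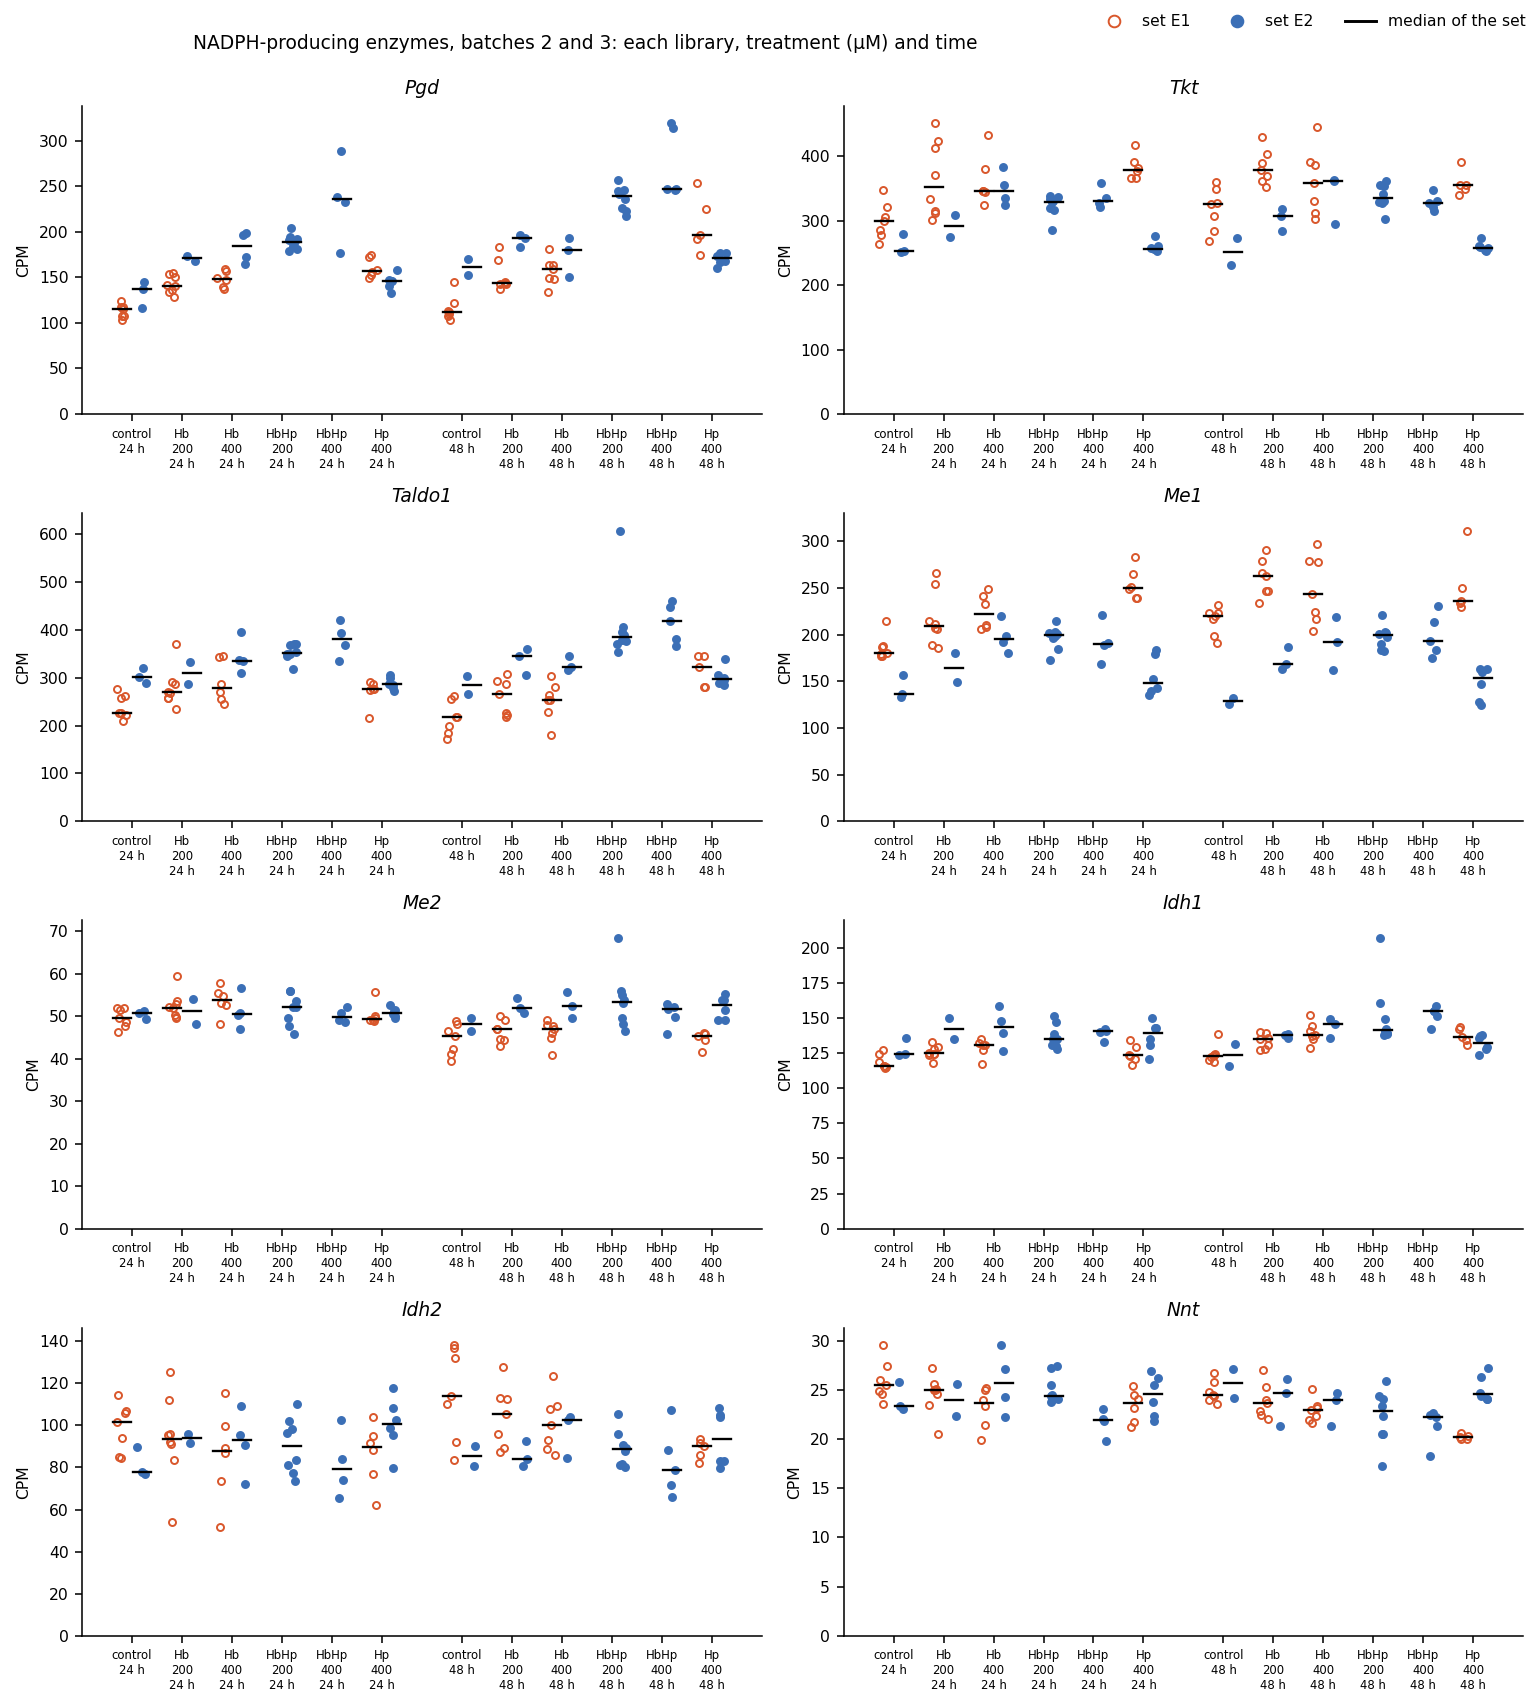
Levels of the 8 genes in the grouped libraries of batches 2 and 3. Each panel is a gene, the vertical axis gives CPM from 0, the horizontal axis gives the treatment with its dose in µM and its time, open orange circles are libraries of set E1, filled blue circles those of set E2, and lines are medians of a set. Me1 and Tkt controls of set E2 sit below those of set E1, and all HbHp libraries are set E2.

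HbHp raised Pgd at both doses and times. At 200 µM 3 members were called at 24 h (Pgd, Tkt and Me1, all higher; background 1.93%, 1.66% higher) and 7 at 48 h (6 higher, Nnt lower; background 11.9%, 7.04% higher and 4.85% lower). At 400 µM 5 were called at 24 h (4 higher, Nnt lower; background 5.15%, 3.1% higher and 2.06% lower) and 6 at 48 h (5 higher, Nnt lower; background 11.9%, 7.39% higher and 4.56% lower). The median change of the 8 members was 0.23 and 0.28 at 200 µM and 0.26 and 0.26 at 400 µM for 24 h and 48 h, beside medians over all genes between -0.01 and 0.00. The HbHp, Hb and Hp groups share their controls.

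Pgd ran from 179 to 204 CPM at 200 µM and 24 h (median 189), from 218 to 257 at 200 µM and 48 h (median 239). At 400 µM the 4 libraries of 24 h were at 289, 239, 233 and 177 CPM and the 5 of 48 h at 247.1, 247.4, 319, 315 and 246. Every HbHp library lay above every control of its time, also above the highest set E2 controls, 145 CPM at 24 h and 170.3 at 48 h. The log2 fold changes were 0.56 (SE 0.09, adjusted p = 4.5e-05) and 0.79 (SE 0.09, adjusted p = 7.8e-10) at 200 µM, and 0.86 (SE 0.11, adjusted p = 4.7e-09) and 1.001 (SE 0.10, adjusted p = 1.4e-12) at 400 µM. These calls held under every alternative fit that was run, with set E2 alone and batch 3 alone among them. Batch 3 holds only 1 set E1 and 1 set E2 control at each time.

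Taldo1 ran from 353 to 608 CPM at 200 µM and 48 h (median 385) against 172 to 304 in the controls, and the 5 libraries at 400 µM were at 418, 365, 447, 460.0 and 380.4 CPM. All of them exceeded the controls, also those of set E2 (265 and 304). The changes at 48 h were 0.65 (SE 0.10, adjusted p = 1.8e-06) and 0.66 (SE 0.11, adjusted p = 6.1e-06). At 24 h Taldo1 changed by 0.29 (95% interval 0.10 to 0.48, adjusted p = 0.12) at 200 µM and by 0.39 (SE 0.12, adjusted p = 0.03) at 400 µM. The latter was lost within set E2 (0.28, with an adjusted p of 0.28 as well) and without replicate 1, 2 or 3 of its 4 libraries (adjusted p of 0.17, 0.094 and 0.055).

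For Me1 and Tkt the HbHp libraries stood differently to the controls of each set. At 200 µM Me1 ran from 173 to 214 CPM at 24 h and from 183 to 221 at 48 h under HbHp, within or below the range of the set E1 controls (177 to 215 and 191 to 232). The set E2 controls were at 157, 133 and 137 CPM at 24 h and at 125 and 132 at 48 h, below every HbHp library. Fitted with both terms, Me1 changed by 0.56 (SE 0.09, adjusted p = 4.6e-05) and 0.44 (SE 0.10, adjusted p = 0.00095) at 200 µM and by 0.52 (SE 0.11, adjusted p = 0.00096) and 0.45 (SE 0.11, adjusted p = 0.0017) at 400 µM. With the batch term alone these were 0.24, 0.06, 0.20 and 0.07, none past the threshold. Within set E2 alone they were 0.45 (adjusted p = 0.044), 0.62 (0.0035), 0.41 (0.076) and 0.62 (0.0029). Batch 3 alone, with 1 set E2 control at each time, called all 4 at 0.61 to 0.64.

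Tkt showed the same dependence. Its HbHp libraries ran from 286 to 361 CPM, its set E2 controls were at 252, 251 and 279 (24 h) and 231 and 273 (48 h), and its set E1 controls ran from 265 to 360.3. The changes were 0.28 (adjusted p = 0.031) and 0.29 (adjusted p = 0.0081) at 200 µM and 0.32 (adjusted p = 0.018) and 0.25 (adjusted p = 0.044) at 400 µM, for 24 h and 48 h, with SE of 0.08 or 0.09. With the batch term alone they were 0.08, 0.06, 0.13 and 0.02, none past the threshold. In batch 3 alone, with 1 set E2 control at each time, they were 0.34 to 0.48, all past it. Within set E2 alone that at 200 µM and 24 h did not pass (0.20, adjusted p = 0.11), and the others did. The 48 h call at 400 µM was lost without any 1 of the 5 HbHp libraries (adjusted p from 0.052 to 0.13) and without set E2 control replicate 7 or 9 of 48 h or 11 of 24 h (0.061 to 0.098). Lost as well were the 24 h call at 400 µM without HbHp replicate 1 (0.062) or 4 (0.055), and the 24 h call at 200 µM without set E2 control replicate 7 or 9 of 48 h or 11 of 24 h (0.056 to 0.085). Summed microglial markers also differed by set, with 48 h control medians of 986 CPM in E1 and 3215 in E2. Within set E2 at 48 h they had medians of 2099 CPM under HbHp at 200 µM and 1934 at 400 µM, and the border macrophage markers of 57.3 CPM in the controls, 35.99 at 200 µM and 40.2 at 400 µM. The set E2 controls of 48 h are 2 libraries. At 24 h in set E2 the microglial medians went the other way, with 949 CPM in 3 controls, 1298 at 200 µM and 1559 at 400 µM. The border macrophage medians there were 41.7, 35.8 and 36.4 CPM. The part of these markers was not tested.

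**Figure D3:**
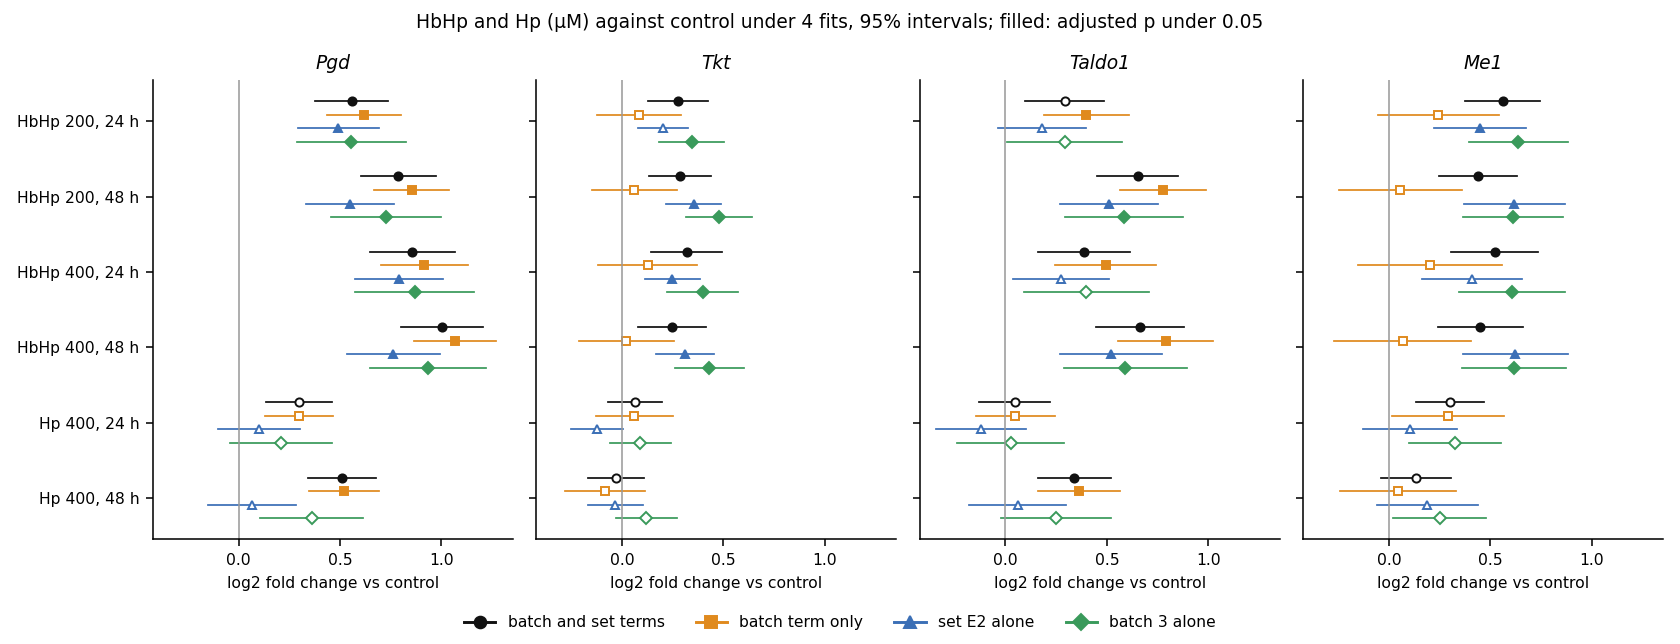
Log2 fold change of Pgd, Tkt, Taldo1 and Me1 for HbHp and Hp against control under 4 fits. Rows are treatment, dose in µM and time, bars are 95% intervals, filled symbols have an adjusted p under 0.05, and symbols mark batch and set terms, the batch term only, set E2 alone and batch 3 alone. Pgd stays to the right of 0 under HbHp in all 4 fits, whereas Me1 and Tkt lie near 0 with the batch term only.

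Among the other members, Idh1 rose under HbHp at 48 h, by 0.28 at 200 µM (SE 0.06, adjusted p = 0.00031) and by 0.28 at 400 µM (SE 0.06, adjusted p = 0.00077), where heme-albumin had lowered it. Its 5 libraries at 400 µM were at 142, 159, 155.2, 155.1 and 151 CPM, all above the highest control (139), and 6 of 8 were above it at 200 µM. In batch 3 alone both changes were 0.32 and missed the threshold (adjusted p of 0.057 and 0.058). The heme-albumin and HbHp values come from separate batches and times, so their difference was not tested. Me2 was called once, at 200 µM and 48 h (0.18, adjusted p = 0.024), and not without the highest library, replicate 1 at 68.4 CPM (0.11, adjusted p = 0.19). Without that library Taldo1 changed by 0.54, Idh1 by 0.19 and Nnt by -0.24, all still past the threshold.

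Nnt changed by -0.28 (SE 0.07, adjusted p = 0.0028) at 200 µM and 48 h, by -0.33 (SE 0.08, adjusted p = 0.0039) at 400 µM and 24 h and by -0.34 (SE 0.07, adjusted p = 0.00091) at 400 µM and 48 h. The 400 µM libraries were at 21.8, 22.1, 19.8 and 23.1 CPM (24 h) and 18.3, 22.2, 22.5, 22.7 and 21.4 CPM (48 h), all below the lowest control of its time. At 24 h this was nearly a tie, with the highest HbHp library at 23.092 CPM and the lowest control, of set E2, at 23.098. Within set E2 none of these 3 changes passed (-0.27, -0.26 and -0.33; adjusted p from 0.073 to 0.23). Idh2 was not called in any HbHp group, with -0.31 (95% interval -0.58 to -0.04) and -0.42 (-0.72 to -0.12) at 48 h.

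HbHp was then set against Hb at the same dose of 200 µM. At 24 h 1 of 8 members was called (background 0.607%, 0.413% higher), Me1 at 0.36 (SE 0.09, adjusted p = 0.046), which turned to -0.02 with the batch term alone. At 48 h 3 were called (background 4.98%, 3.14% higher and 1.84% lower): Pgd at 0.41 (SE 0.09, adjusted p = 0.004), Taldo1 at 0.36 (SE 0.10, adjusted p = 0.017) and Nnt at -0.22 (SE 0.07, adjusted p = 0.032). Tkt did not separate the treatments at 48 h (0.01, 95% interval -0.14 to 0.16), nor did Me1 (0.13, 95% interval -0.06 to 0.31). Within set E2, which holds 3 Hb libraries of that group, Pgd differed by 0.30 (adjusted p = 0.16), with Hb at 183 to 197 CPM and HbHp at 218 to 257, and leaving out HbHp replicate 1 ended the calls of Taldo1 (0.26, adjusted p = 0.12) and Nnt (-0.18, adjusted p = 0.14).

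Hp alone at 400 µM raised no member past the threshold at 24 h (0 of 8 in the main edgeR fit, background 0.704%). DESeq2 called 2, Pgd and Me1. In the main edgeR fit 4 members had an unadjusted p under 0.05, Pgd (0.30, adjusted p = 0.062), Me1 (0.30, adjusted p = 0.062), Idh1 and Nnt. So did 1973 of all 16473 genes. In set E1 every Hp library of 24 h exceeded every control for Pgd (149 to 175 against 103 to 124 CPM). The same held for Tkt (366 to 418 against 265 to 347) and Me1 (239 to 283 against 177 to 215). The ranges overlapped in set E2, at 133 to 158 against 117 to 145 for Pgd and 252 to 276 against 251 to 279 for Tkt. For Me1 they were 135 to 184 against 133 to 157. All Hp libraries are batch 3, whereas 6 of the 7 set E1 controls of 24 h are batch 2. At 48 h 3 were called (background 10.8%, 4.88% higher and 5.88% lower): Pgd at 0.51 (SE 0.09, adjusted p = 2.7e-05), Taldo1 at 0.34 (SE 0.09, adjusted p = 0.0099) and Nnt at -0.22 (SE 0.06, adjusted p = 0.013). The Pgd values differed by set. In set E1 Hp ran from 174 to 254 CPM against 104 to 145 in the controls, and in set E2 from 161 to 176 against 152 and 170.3. Within set E2 the change was 0.07 (adjusted p = 0.94) for Pgd and 0.06 (adjusted p = 0.95) for Taldo1. Nnt under Hp lay between 20.0 and 20.6 CPM in the 5 set E1 libraries and between 24.1 and 27.2 in the 6 of set E2.

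Adding Hb to Hp, as HbHp against Hp at 400 µM, gave 1 call of 8 at 24 h (background 0.619%, 0.522% higher) and 2 at 48 h (background 1.44%, 1.03% higher). Pgd was higher with HbHp by 0.56 (SE 0.10, adjusted p = 0.00015) at 24 h and by 0.49 (SE 0.09, adjusted p = 0.00046) at 48 h, and Tkt by 0.28 (SE 0.07, adjusted p = 0.031) at 48 h. Every HbHp library exceeded every set E2 Hp library in Pgd, at 177 or more against 158 or less CPM at 24 h and 246 or more against 176 or less at 48 h. Within set E2 alone the Pgd, Taldo1, Tkt and Me1 differences all passed at 48 h, beside 554 of all genes (238 in the main fit). The 48 h call of Tkt was lost without any 1 of the 5 HbHp libraries (adjusted p from 0.055 to 0.11). Without HbHp replicate 1, the highest of 4, the 24 h difference of Pgd was 0.44 (adjusted p = 0.051).

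**Figure D4:**
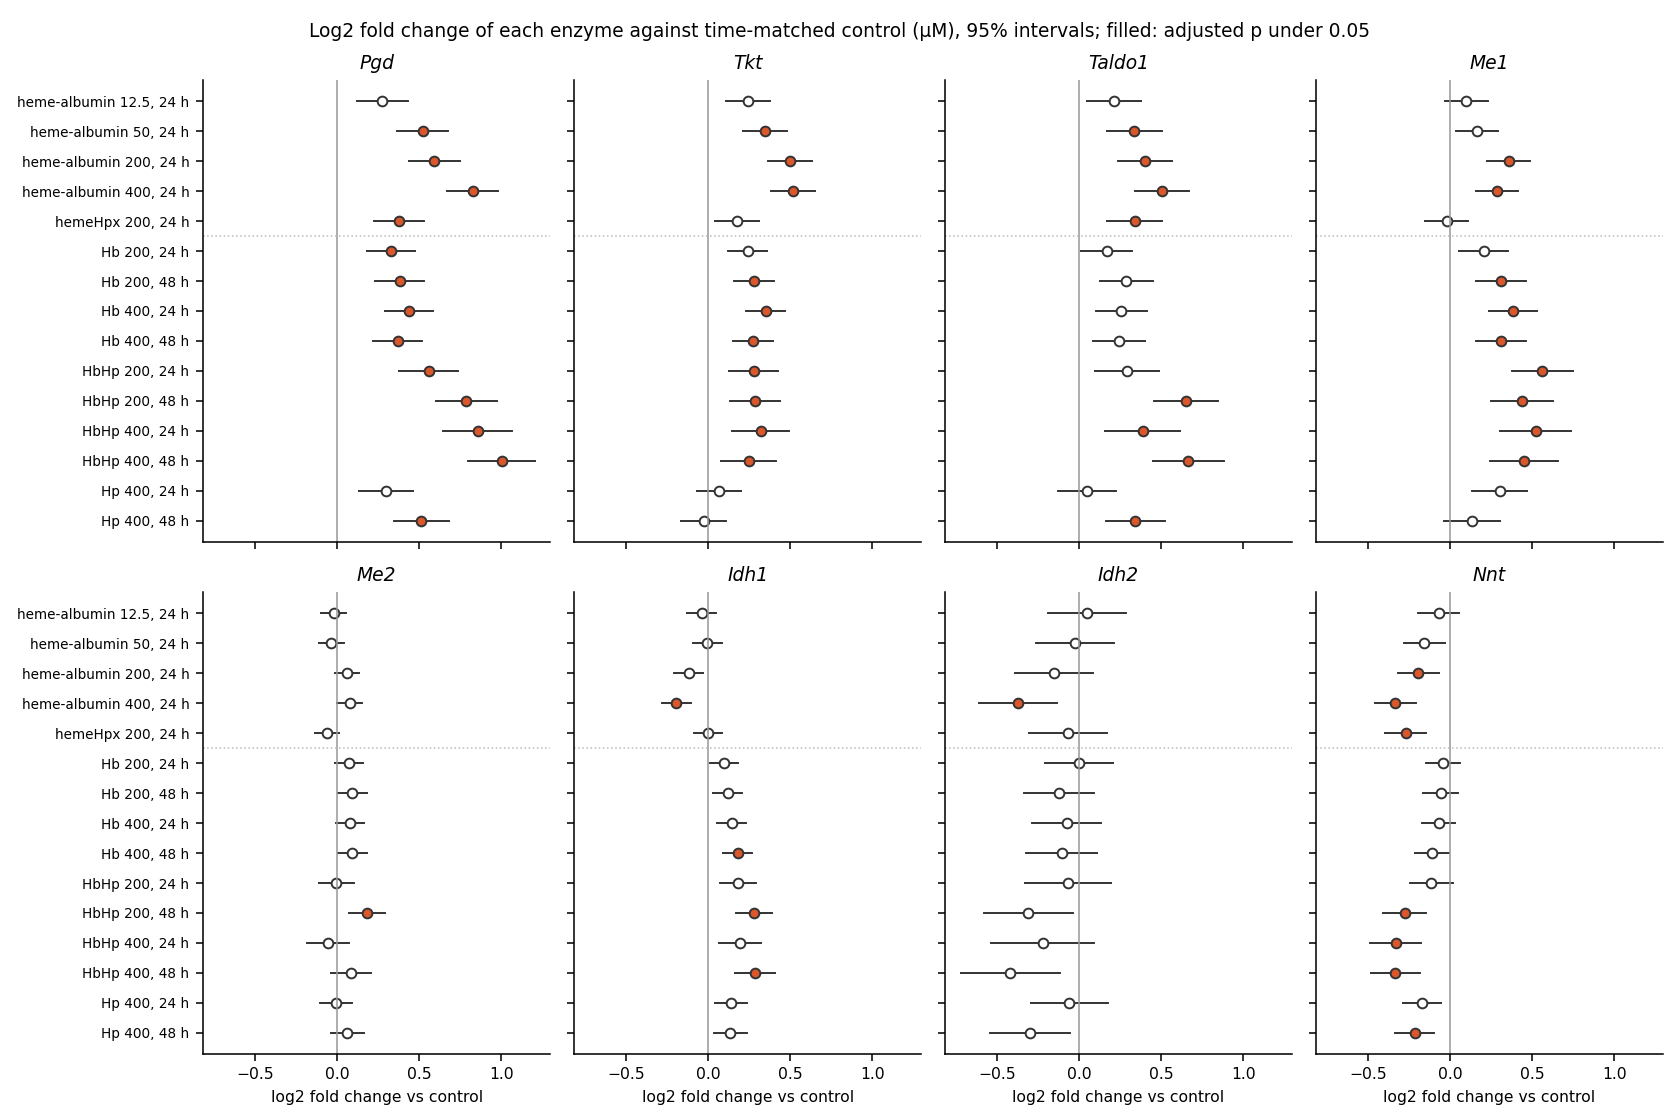
Log2 fold change of each enzyme against its time-matched control. Rows are treatments with dose in µM and time, bars are 95% intervals, filled points have an adjusted p under 0.05, and the dotted line parts the batch 1 fit from the fit of batches 2 and 3. Pgd lies right of 0 in all 15 comparisons and passes in 13, and Nnt lies left of 0 in all 15 and passes in 7.

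Counted over these 15 comparisons with control, which share control libraries within a batch, Pgd was higher in 13, Tkt in 10, Me1 in 9 and Taldo1 in 8, none of them lower in any. Idh1 was higher in 3 and lower in 1, Me2 higher in 1, Idh2 lower in 1 and Nnt lower in 7. Time alone changed no member past the threshold in untreated slices (48 h against 24 h, 0 of 8 in the main edgeR fit, background 4.5%). At an unadjusted p under 0.05 there was 1, Me2 (-0.14, adjusted p = 0.052), which DESeq2 called, beside 3226 of all 16473 genes. The response at 48 h did not differ past the threshold from that at 24 h for any member, either for HbHp at 200 µM (background 0.0121%) or for Hb at 200 µM (background 0%), with edgeR or DESeq2. At an unadjusted p under 0.05 there were 4 members for HbHp, Pgd, Taldo1, Me2 and Nnt, and 0 for Hb. Of all 16473 genes, 1685 were under that cutoff for HbHp and 118 for Hb.

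The other genes of these pathways were described by lists that hold none of the 8 members. Of all genes, 13.6% were called under heme-albumin at 200 µM and 11.9% under HbHp at 200 µM and 48 h, and the counts of 1 or 2 in 9 genes that follow are near these shares. Of 9 further pentose phosphate genes, heme-albumin at 200 µM raised 1, G6pdx, the entry enzyme (0.59, adjusted p = 4.0e-11), and lowered 1, Prps2, a phosphoribosyl pyrophosphate synthetase (-0.41, adjusted p = 0.00011), with a list median of 0.04 beside -0.01 over all genes. HbHp at 200 µM and 48 h raised 2, G6pdx (0.66, adjusted p = 4.7e-06) and Rpe, the ribulose phosphate epimerase (0.22, adjusted p = 0.029). Among 9 other NADPH and folate pathway sources, 1 rose under heme-albumin, mitochondrial Mthfd2 (0.48, adjusted p = 1.2e-05), and 1 fell under HbHp, the folate dehydrogenase Aldh1l1 (-0.70, adjusted p = 0.046).

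Many of the enzymes that spend NADPH rose. Of 11 such enzymes 7 rose under heme-albumin at 200 µM (median 0.29) and 6 under HbHp at 200 µM and 48 h (median 0.65), none fell, where 6.98% and 7.04% of all genes were called higher. Hmox1, heme oxygenase, rose by 1.32 and 1.22, the quinone reductase Nqo1 by 0.85 and 1.87, biliverdin reductase Blvrb by 0.81 and 1.21, and thioredoxin reductase Txnrd1 by 0.61 and 0.74. A list of 7 widely used NRF2 targets, 3 of which are in the list before (Nqo1, Txnrd1 and Hmox1), rose in 7 of 7 under either treatment (medians 0.95 and 1.47). Against hemeHpx, heme-albumin at 200 µM had 6 of 11 NADPH-spending enzymes and 7 of 7 NRF2 targets higher, where 12.9% of all genes were.

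Neighbouring pathways are given against the same background, 13.6% of all genes called under heme-albumin at 200 µM and 11.9% under HbHp at 200 µM and 48 h. With lists of 7 to 15 genes, counts of 0 to 2 lie near it and are no result about a list. None of 10 NAD-linked and citrate cycle genes was called by edgeR in either (medians 0.02 and -0.02). At an unadjusted p under 0.05 there were 1 under heme-albumin and 2 under HbHp, beside 4254 of all 15554 and 4265 of all 16473 genes. Of 15 glycolysis genes 2 rose under heme-albumin, the glucose transporter Slc2a1 (0.27) and pyruvate kinase Pkm (0.13). Under HbHp 1 rose, Slc2a1 (0.40), and 1 fell, the phosphofructokinase Pfkl (-0.55). Of 7 fatty acid synthesis genes, whose products need NADPH, 1 rose under heme-albumin, Acly (0.12), and 2 fell under HbHp, Fasn (-0.51) and Srebf1 (-0.43).

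The genes whose levels went most nearly with a member were looked up among 15327 genes, by Pearson r in batch 1 (60 libraries) and, after removing batch and set, in the grouped libraries of batches 2 and 3, ranked by the smaller of both. The libraries share treatments, so these are descriptions. Pgd went with Blvrb (r = 0.92 and 0.93), the peroxiredoxin Prdx1 (0.88 and 0.92) and Ikbkg (0.87 and 0.89). Tkt and Me1 both had G6pdx as their nearest gene (0.90 and 0.88 for Tkt, 0.84 and 0.85 for Me1), and Taldo1 had the heme transporter Slc48a1 (0.88 and 0.89). Nnt went with the proliferation genes Mki67 (0.81 and 0.67), Rad54l (0.76 and 0.66) and Plk1 (0.67 and 0.64), and Idh2 with Oat, the mitochondrial ornithine aminotransferase (0.91 and 0.89), and Tst (0.90 and 0.89).

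Among the members themselves, Pgd went with Taldo1 (r = 0.84 in batch 1 and 0.71 in batches 2 and 3) and Tkt with Me1 (0.75 and 0.79). Pgd and Me1 were less alike (0.18 and 0.41). Pgd and Idh1 had r of -0.62 in batch 1 and 0.58 in batches 2 and 3, the sign differing as their fold changes did. Me2 had its nearest gene at 0.74 and 0.65 (Gtf2h1) and Idh1 at 0.64 and 0.65 (Tmem165).

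On GRCm38 (GENCODE M21) the members lie at chr4:149149991-149166771 (Pgd, ENSMUSG00000028961), chr14:30548359-30574720 (Tkt, ENSMUSG00000021957), chr7:141392199-141402968 (Taldo1, ENSMUSG00000025503), chr9:86581371-86695953 (Me1, ENSMUSG00000032418), chr1:65158616-65186500 (Idh1, ENSMUSG00000025950), chr7:80094846-80115392 (Idh2, ENSMUSG00000030541) and chr13:119335448-119408997 (Nnt, ENSMUSG00000025453), with Me2 (ENSMUSG00000024556) on chromosome 18. The submitters counted on GRCm39, so these coordinates describe the genes and not the counted features. Me1 shares 30 bases with an antisense gene, and whether strand was used in counting is not given in the sources used here.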

How the data were processed

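Illumina TruSeq mRNA libraries of brain slice cultures were analysed. The authors deposited whole, unnormalized read counts per Ensembl gene for each library. Per the submitters' processing notes they counted with featureCounts on GRCm39; the aligner and the versions are not given in the sources used here. Groups followed the treatment, dose, time and batch labels, and 21 libraries whose labels conflict over the treatment or the time entered no comparison. The 10 hemeHpx libraries also have conflicting labels (titles name haptoglobin, tags and library names hpx) and were kept by their tag. Batch 1 (60 libraries, 15554 genes) and batches 2 and 3 (107 libraries, 16473 genes, with batch and E1 or E2 set as terms) were fitted separately with the quasi-likelihood F test of edgeR 4.0.16 (R 4.3.3) after TMM scaling and filterByExpr (smallest count 10, total 15), with Benjamini-Hochberg adjustment over all genes and a threshold of 0.05. The set term assumes an equal set difference in every group. The standard error is the log2 fold change over the square root of F. Of the Nnt models ENSMUSG00000025453 was used; the other holds 95.2% to 99.7% of its count. Alternatives were DESeq2 1.42.0, other scaling, filters, terms and libraries, and leaving out replicates in groups of at most 5 libraries or set E2 controls. Batch 2 alone, the GC and length correction and the fit without HbHp replicate 1 (200 µM, 48 h) were added after seeing the data. Members, lists and tests were chosen with earlier results of these data known. All 8 members were named, with at most 4 genes of each list, those of the largest change past the threshold in heme-albumin at 200 µM or HbHp at 200 µM and 48 h, and the 3 genes most like a member. The test was tried on simulated counts. Of 724 same-group pairs of libraries none agreed within sampling noise.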

Additional observations from a re-analysis of the deposited data

Results flagged for a closer look

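In 128 combinations of a member and a group of 4 to 10 libraries, 8 had a highest or lowest library far from the rest (Dixon's test); chance alone marks about 1 in 20 of them. Replicate 1 of HbHp at 200 µM and 48 h was the highest library for 3 members: Taldo1 at 607.6 CPM (the next at 406.0), Idh1 at 207.2 (160.5) and Me2 at 68.4 (55.8). Me1 was highest at 249.6 CPM in heme-albumin 200 µM replicate 8 (210.1). Nnt was highest at 40.1 CPM in batch 1 control replicate 12 (31.9). Tkt was lowest at 285.8 CPM in HbHp 200 µM 24 h replicate 7 (316.2). In Hb at 200 µM and 24 h, Me2 was highest at 59.4 CPM in replicate 10 (54.1) and Idh1 at 150.1 in replicate 8 (134.8).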

How the results depend on the processing

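Of 2432 fold changes recomputed under the alternatives, 2207 stayed on their side of the threshold, called or not, 146 lost the call and 76 gained it. In 3 the sign turned with a call in the main or the alternative fit. Where neither fit made a call, the direction was not compared. The reversed values were Me1 in HbHp against Hb at 200 µM and 24 h (-0.0163 with the batch term only, -0.0596 with no batch or set term) and Pgd in set E2 against E1 (-0.0695 in batch 3 alone). The cause was not tested. Counts of members that moved by over 1.5 times were as follows, for 24 h and 48 h where both moved. With the batch term only, Hb at 200 µM had 0 and 1, Hb at 400 µM 1 and 1, and HbHp against Hp 2 at 24 h. With no batch or set term, these were 0 and 1, 1 and 1, and 2, Hp had 1 at 24 h and HbHp against Hb 2 at 24 h. In set E2 alone, Hb at 200 µM had 0 and 0, Hb at 400 µM 2 at 48 h, HbHp at 400 µM 2 at 24 h, Hp 0 at 48 h, HbHp against Hb 0 and 0, and HbHp against Hp 3 and 4. In batch 3 alone, Hb at 200 µM had 0 and 0, Hb at 400 µM 1 and 0, HbHp at 200 µM 4 at 48 h, Hp 0 at 48 h, HbHp against Hb 0 and 0, and HbHp against Hp 2 and 4. In batch 2 alone, Hb at 200 µM had 1 at 48 h, Hb at 400 µM 1 and 1, and the control times 1. DESeq2 gave 2 for Hp at 24 h and 1 for the control times, RLE scaling 1 for the control times, and a minimum of 10 counts in every library 1 for each. With no filter, HbHp against Hb had 0 at 24 h and HbHp against Hp 1 at 48 h. The GC and length correction gave 3 for hemeHpx against heme-albumin and 0 for HbHp against Hb at 24 h. Leaving out single libraries gave 0 to 1 for Hb at 200 µM and 24 h, 1 to 3 at 48 h, 2 to 4 for Hb at 400 µM and 48 h, 2 to 4 for HbHp at 200 µM and 24 h, 3 to 6 for HbHp at 400 µM and 24 h, 0 to 1 for Hp at 24 h, 0 to 2 for HbHp against Hp at 24 h and 1 in each case at 48 h, 1 for HbHp against Hb at 48 h without HbHp replicate 1, and 0 to 1 for the control times. Counts over all genes moved more: HbHp at 200 µM and 48 h had 1959, and 359 (batch 3 alone) to 5150 (no terms), or 1199 without replicate 1; at 24 h 318, and 115 to 1211. HbHp at 400 µM had 849, and 322 to 1817 at 24 h, and 1968, and 602 to 4300 at 48 h. Hp had 116, and 4 to 232, and 1773, and 0 to 2717. HbHp against Hb had 100, and 0 to 1624, and 821, and 7 to 3427; HbHp against Hp 102, and 14 to 298, and 238, and 71 to 554. Hb at 200 µM had 16, and 0 to 7, and 51, and 0 to 19; at 400 µM 86, and 10 to 43, and 99, and 2 to 55. The control times had 742, and 0 to 375, and the later minus earlier HbHp response 2, and 0 to 6. In batch 1, hemeHpx had 1276, and 277 with no filter and 109 with the GC and length correction, the step from 200 to 400 µM 197, and 416 with that correction, and 12.5 µM 7, and 14 with DESeq2. Precision is set by the 2 or 3 set E2 controls of each time and the 4 or 5 HbHp libraries at 400 µM.

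The codes in the library names paired the samples only in part, and the main fits did not use them. Of 169 same-code pairs in batch 1 and 291 in batches 2 and 3, 94 and 124 had deviations correlated above 0.1. The medians were 0.19 and 0.06, beside -0.010 and -0.005 for pairs of different codes. With these codes as a replicate block, 177 of 192 fold changes stayed on their side of the threshold, called or not, 6 lost the call and 9 gained it. Members called then were 1 at 12.5 µM (Pgd), 1 for 400 against 200 µM (Pgd), 0 for Hb at 200 µM and 24 h, 0 for HbHp against Hb at 24 h and 2 for HbHp against Hp at 24 h, and over all genes 22 at 12.5 µM, 198 at 50 µM (72 without it), 3706 for hemeHpx, 321 for the step to 400 µM and 142 for the control times.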

Other observations

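The 20 libraries whose treatment tag reads HbHpx, while their titles name hemoglobin-haptoglobin, were left without a group and are given as values only. All 20 are batch 3, whereas most controls are batch 2, with 1 batch 3 control of each set at either time. Batch was not taken into account in these values. At 24 h, 10 of them had Nnt between 16.3 and 22.999 CPM (median 18.6) beside 23.1 to 29.5 in the 10 controls of that time, and all 10 lay below the lowest control, also within each set. At 48 h, 10 had Nnt between 14.9 and 23.4 CPM (median 18.8) beside 23.5 to 27.1 in 9 controls, again all below, also within each set. Idh2 ran from 57.9 to 93.5 CPM at 48 h (median 71.8), with 6 of 7 set E1 libraries below the lowest control of that set (83.6) and 2 of 3 of set E2 (80.7). Pgd ran from 118.3 to 159.9 CPM at 24 h (median 133.3), and from 109.4 to 191.7 at 48 h (median 161.2). Against controls of their own set, 4 of 7 set E1 and 3 of 3 set E2 libraries lay above the highest at 24 h, and 4 of 7 and 2 of 3 at 48 h. Tkt had a median of 344.6 CPM at 24 h and 269.6 at 48 h, Taldo1 of 263.6 and 264.2, Me1 of 198.2 and 152.1, Me2 of 49.3 and 43.1 and Idh1 of 126.8 and 122.2. The control library whose labels give both times had Pgd at 140.6 CPM, Tkt at 246.3, Taldo1 at 291.7, Me1 at 132.4, Me2 at 47.6, Idh1 at 127.0, Idh2 at 90.1 and Nnt at 23.7.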
